A study of Oryza sativa with 12 samples.

Results

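The osmads1 mutation of rice was read at 2 panicle lengths, and the results below describe how the difference between mutant and wild type itself differed between those lengths. The measure was the interaction: the osmads1 minus wild type difference at 5-7 mm minus the same difference at 2 mm, in log2 units. All 12 arrays of the series entered it, in 4 groups of 3, namely osmads1 at 2 mm, wild type at 2 mm, osmads1 at 5-7 mm and wild type at 5-7 mm. A positive interaction means that the mutant difference was higher in the longer panicles, and a negative one that it was lower there. Panicles came from untreated plants in a paddy field. The labels give neither the osmads1 allele nor the wild-type background, and they give no time of day and no number of plants pooled. The series was set up to follow the functions of OsMADS1 from early to later floret development.

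OsMADS1 encodes a SEPALLATA-type MADS-box factor, of the E class of floral organ identity genes. E class proteins form complexes with the A, B, C and D class MADS-box proteins that specify organs from lemma and palea inward to the ovule. In rice OsMADS1 is known for its part in lemma and palea identity and in ending the floret meristem. Panicles of 2 mm carry florets in which the inner organs begin to form, and in panicles of 5-7 mm those organs are well advanced.

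Levels are log2 probe set values from whole panicles, so that fewer cells of a type and less RNA per cell cannot be told apart. Replicate arrays correlated at 0.9954 to 0.9977 across probe sets, and the number of arrays limits the precision. Array medians lay between 4.098 and 4.134 in the shorter panicles and between 4.931 and 5.004 in the longer ones, so levels were compared only within a length. The residual spread was 0.1356 at 2 mm and 0.1601 at 5-7 mm. Reporter control probe sets, which match no rice gene, had an upper quartile of 3.3 at 2 mm and 3.88 at 5-7 mm, and levels below these are called the range of the reporter controls.

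Of 187 control probe sets, 3 passed in the interaction (1.6%). The reporter control RPTR-Os-K01193-1 read 6.15 to 7.02 on the osmads1 arrays at 2 mm, 2.83 to 3.00 on the wild-type arrays of that length, and 2.55 to 2.69 on all arrays at 5-7 mm. It separated the mutant from wild type at 2 mm alone (interaction -3.69, adjusted p = 4.691e-08). For one rice GAPDH control the 3′ probe set read above the 5′ one by 2.58 ± 0.059 (osmads1) and 3.58 ± 0.042 (wild type) at 2 mm (SD, n = 3), against 2.24 ± 0.44 and 2.1 ± 0.16 at 5-7 mm. This gap had an interaction of 1.15 (two-sided exact permutation p = 0.04 over 400 arrangements, smallest possible 0.005), in a family of 16 control pairs with no adjustment. The other rice GAPDH pair had 0.29, and the rice actin, ef1a and cyclophilin pairs had 0.16, 0.22 and 0.31. Their exact permutation p was 0.375, 0.445, 0.4 and 0.085, in that order. The lowest exact permutation p of the family was 0.03, for the bacterial bioD pair (interaction -0.14). The reporter control and the gap of 1.15 move with the comparison, and their part in the results was not tested. The sample titles name the mutant only as osmads1 at both lengths, and whether those panicles came from the same line was not tested.

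The mutant difference depended on panicle length for 12750 of 57194 probe sets at an adjusted p under 0.05 in limma (22.3%). Of these, 6487 had a positive interaction (11.3%) and 6263 a negative one (11.0%). At an unadjusted p under 0.05 the count was 18373. The median size of a called interaction was 0.68 log2 units, beside 0.193 over all probe sets and a median standard error of 0.144. An interaction of at least 1 log2 unit, a change of the mutant to wild type ratio by a factor of 2 or more, was called for 1717 positive and 1783 negative probe sets. The share called rose with the level, from 6.53% in the lowest quartile of mean level through 12.5% and 27.8% to 42.3% in the highest.

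The largest class of interaction calls was of probe sets that differed between the genotypes at 5-7 mm and not at 2 mm. It held 6078 of the 12750 calls (47.7%), against 2524 (19.8%) that differed at 2 mm alone and 1396 (10.9%) that were called at neither length. Between the genotypes 6737 probe sets differed at 2 mm (11.8%) and 12285 at 5-7 mm (21.5%). Sign changes were frequent among probe sets called at both lengths. Of 3254 such probe sets, 2587 (79.5%) had opposite signs and 667 the same sign. The count of opposite signs with an interaction call fell to 869 when each length had a variance of its own. That setting also dropped the sharing of variance across probe sets (eBayes), and the 2 changes were not tested apart. The opposite signs were made up of 1431 that were higher in osmads1 at 2 mm and lower at 5-7 mm, and 1156 with the reverse order. Of the 667 with the same sign, 502 had no interaction call. Where both differences were at least 1 log2 unit in size, 196 probe sets had opposite signs and 67 the same sign. Across all probe sets the differences of the 2 lengths correlated at r = -0.22 (Spearman -0.242), a description over 57194 probe sets that share arrays within each length and none between the lengths.

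**Figure D1:**
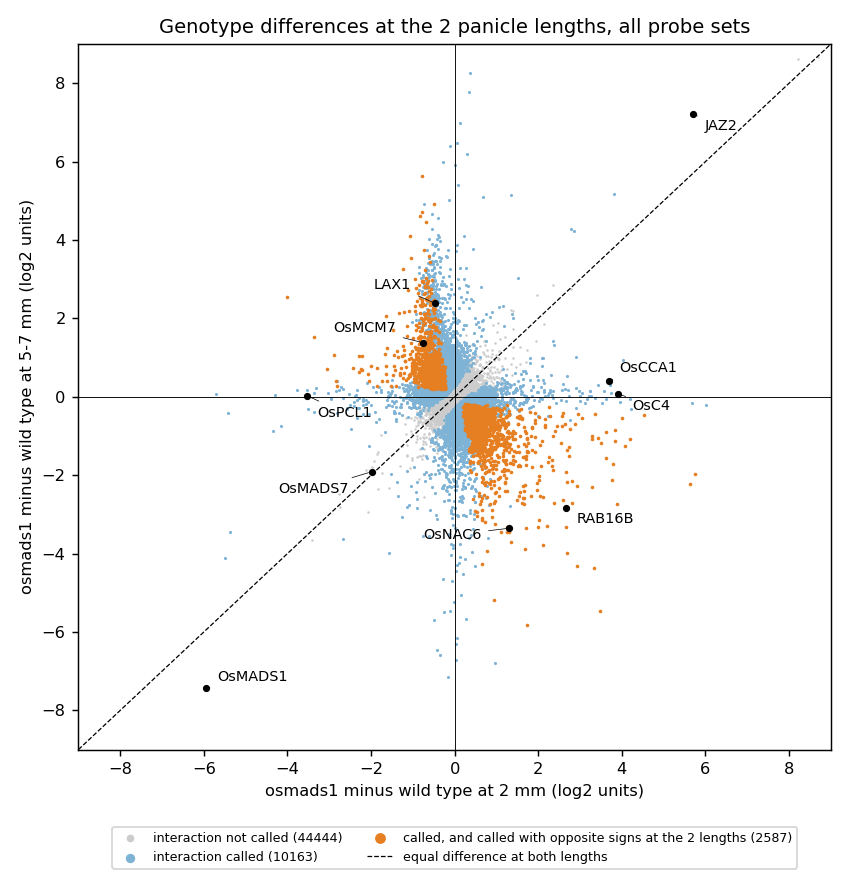
The osmads1 minus wild type difference at 2 mm (horizontal axis) and at 5-7 mm (vertical axis), both in log2 units, for each of 57194 probe sets, with 2587 probe sets of opposite sign in orange. Orange points fill the upper left and lower right quadrants, genes such as OsPCL1 and OsC4 lie along an axis, and OsMADS7 lies near the dashed line of equal difference. OsMADS1 (interaction -1.49) and JAZ2 (1.5) have the same sign at both lengths and lie off that line.

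Named genes are taken by their brightest probe set. On that basis 6508 of 17905 genes were called in the interaction (36.3%), 3071 positive (17.2%) and 3437 negative (19.2%), with a median interaction of 0.00 over all genes. Among the 2473 genes with an informative name the share was 39.5%, with 18.5% positive and 21.0% negative. Counts of gene groups below are set beside these shares, and the groups hold only genes with an informative name. A change from lower in osmads1 at 2 mm to higher at 5-7 mm was called for 639 genes (3.57%), and the reverse for 899 genes (5.02%). Several genes named below have other probe sets, none of them called, namely OsRBR1, HSP18.0, CAB2R, OsPRR73, JAZ10, OsCKX11, gid1 and D35.

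The OsMADS1 transcript itself was far lower in osmads1 at both lengths. At 2 mm the osmads1 arrays read 5.25, 4.27 and 5.04 and the wild-type arrays 10.57, 10.93 and 10.90. The longer panicles gave 4.96, 3.85 and 3.49 in osmads1 and 11.61, 11.51 and 11.48 in wild type. The groups did not overlap at either length. The differences of -5.94 ± 0.31 and -7.43 ± 0.31 gave an interaction of -1.49 ± 0.44 (adjusted p = 0.027). That call did not hold under 8 alternatives. Among them, rescaling the log2 values of each length to an equal residual spread gave -0.38 (adjusted p = 0.612). This setting also rescaled the genotype differences themselves, up at 2 mm and down at 5-7 mm.

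Among the E class genes and their AGL6-type relatives, the interaction was called positive for both AGL6-type genes, whose deficit in osmads1 was smaller at 5-7 mm. OsMADS6, an AGL6-type gene with roles in floral organ and meristem fate, read 7.86, 7.42 and 7.66 in osmads1 and 9.49, 9.55 and 9.56 in wild type at 2 mm. At 5-7 mm its levels were 10.27, 10.27 and 10.35 against 11.09, 10.91 and 10.84. The groups did not overlap, yet the deficit of 3.69-fold at 2 mm was 1.57-fold at 5-7 mm (interaction 1.23 ± 0.14, adjusted p = 3.92e-05). Its close relative OsMADS17 had a deficit of 4.15-fold at 2 mm and 2.37-fold at 5-7 mm (interaction 0.81 ± 0.18, adjusted p = 0.00563).

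For OsMADS7 and OsMADS8, the SEP3-type partners in floral organ complexes, no interaction was called, and whether they differ in this from the AGL6-type genes was not tested. OsMADS7 was 3.94-fold lower in osmads1 at 2 mm and 3.75-fold lower at 5-7 mm, with an interaction of 0.07 and a 95% interval from -0.55 to 0.69. OsMADS8 was 3.96-fold and 3.48-fold lower, with an interaction of 0.19 and an interval from -0.30 to 0.68. OsMADS5 (-0.35 ± 0.15) and OsMADS34 (0.41 ± 0.16), the nearest relatives of OsMADS1, did not pass (adjusted p = 0.121 and 0.0955), but did under 3 and 2 alternatives. With OsMADS1 included, 2 of 7 genes of this group were called positive and 1 negative (42.9% called).

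None of the 3 B class genes, whose products set lodicule and stamen identity, was called in the interaction. OsMADS2 was lower in osmads1 by 0.46 at 2 mm and 0.52 at 5-7 mm, an interaction of -0.06 ± 0.12. For OsMADS4 and OsMADS16 the interactions were -0.52 ± 0.21 and -0.63 ± 0.25 (adjusted p = 0.109 and 0.0987), with unadjusted 95% intervals from -0.98 to -0.06 and from -1.17 to -0.08. With a replicate block within length OsMADS16 was called (adjusted p = 0.0217). All 3 were lower in osmads1 at each length by the genotype tests.

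Of 4 C and D class genes, which specify stamens, carpels and ovules, only the ovule gene OsMADS13 was called. At 2 mm it read 2.83, 2.67 and 2.69 in osmads1 and 2.93, 2.69 and 2.84 in wild type, overlapping and in the range of the reporter controls. In the longer panicles it read 5.35, 5.20 and 5.36 in wild type against 3.52, 3.48 and 3.69 in osmads1, the latter in the range of the reporter controls. The interaction was -1.65 ± 0.13 (adjusted p = 8.44e-07). The C class genes OsMADS3 (-0.78 ± 0.30, adjusted p = 0.0881) and OsMADS58 (-0.45 ± 0.31, adjusted p = 0.372) and the D class gene OsMADS21 (-0.22 ± 0.12, adjusted p = 0.227) did not pass. OsMADS3 was called under 4 alternatives, among them both replicate blocks (adjusted p = 0.0441 and, within length, 0.0202).

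In the A class, OsMADS15 passed with a small interaction (0.44 ± 0.11, adjusted p = 0.0132), and 2 of its other probe sets were called with the same sign. OsMADS14 (0.11 ± 0.12), OsMADS18 (-0.29 ± 0.099) and OsMADS20 (-0.52 ± 0.21) did not pass, though OsMADS18 was called under 9 alternatives (adjusted p down to 0.00394) and OsMADS20 under 2. Of 13 other MIKC-type MADS-box genes, 1 was called positive and 2 negative (23.1% called), a share below the 36.3% of all genes. OsMADS26 was 1.74-fold higher in osmads1 at 2 mm and 2.0-fold lower at 5-7 mm (interaction -1.80 ± 0.20). OsMADS22, of the SVP group that holds back the floral transition, had an interaction of -1.07 ± 0.23 with overlapping groups at 2 mm and separate ones at 5-7 mm. OsMADS50, a flowering promoter of the SOC1 type, was higher in osmads1 at both lengths and more so at 5-7 mm (0.41 ± 0.11, adjusted p = 0.0148).

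**Figure D2:**
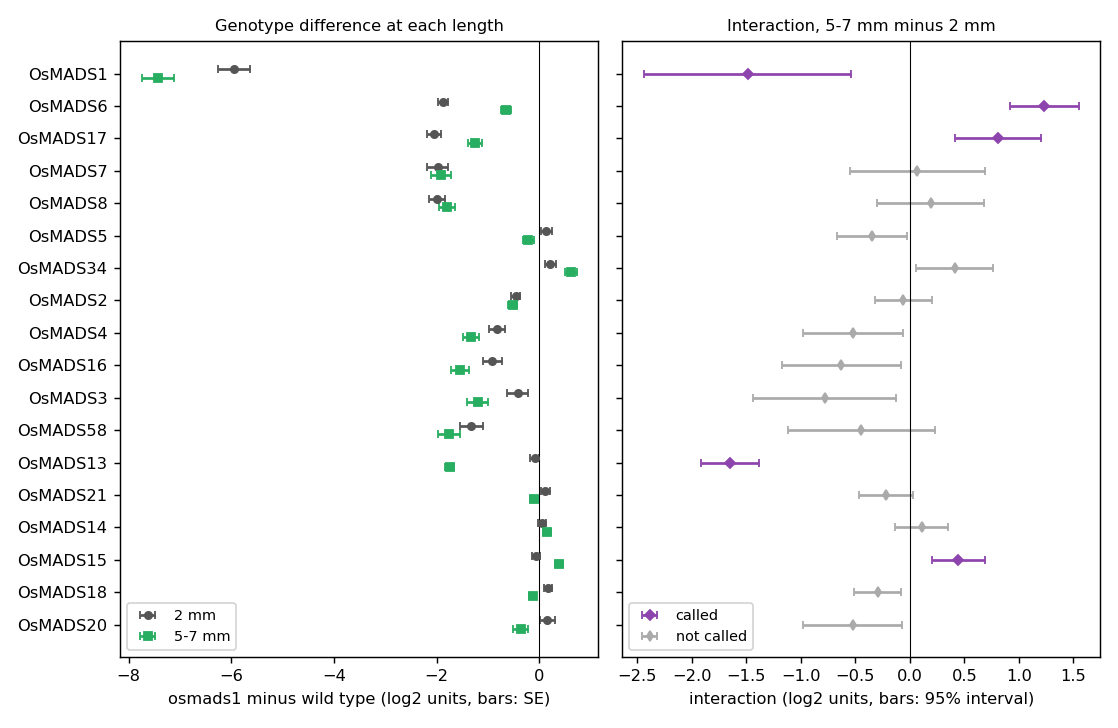
Left, the osmads1 minus wild type difference of 18 floral MADS-box genes at 2 mm (grey circles) and 5-7 mm (green squares) in log2 units with standard errors. Right, their interaction in log2 units with unadjusted 95% intervals, where OsMADS6 (1.23), OsMADS17 (0.81) and OsMADS15 (0.44) passed above 0 and OsMADS13 (-1.65) and OsMADS1 (-1.49) below it.

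A small number of named genes kept a large difference of the same sign at both lengths. The genes with differences of at least 1 log2 unit at both lengths and the smallest interactions were OsMADS7, CML15, OsMADS8, OsMADS58, OsTPP1 and OsMADS17, of which only OsMADS17 was called in the interaction. CML15, a calmodulin-like protein gene, was 3.36-fold lower at 2 mm and 3.82-fold lower at 5-7 mm (interaction -0.18, 95% interval from -1.28 to 0.91). OsTPP1, a trehalose-6-phosphate phosphatase, was 2.99-fold and 5.05-fold lower (-0.76, interval from -1.78 to 0.26). These wide intervals do not show equal differences.

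Of 12 measured meristem and KNOX genes 7 were called positive and 1 negative in the interaction (66.7% called, median interaction 0.75). The largest was for LAX1, a bHLH factor needed to form lateral meristems. At 2 mm LAX1 read 8.24, 8.48 and 8.38 in osmads1 and 8.76, 8.86 and 8.87 in wild type, and at 5-7 mm 10.00, 10.48 and 10.12 against 7.94, 8.01 and 7.49. The groups did not overlap, with osmads1 lower at the first length, though short of a call (adjusted p = 0.0546), and 5.23-fold higher at the second. The interaction was 2.85 ± 0.20 (adjusted p = 4.52e-07).

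Class I KNOX homeobox genes, which maintain meristem cells undifferentiated, were called positive apart from OSH43. OSH6 read 8.57, 8.74 and 8.58 in osmads1 and 9.21, 9.22 and 9.28 in wild type at 2 mm. At 5-7 mm it read 10.23, 10.15 and 10.17 against 9.35, 9.33 and 9.08, so that the order of the groups was exchanged (interaction 1.53 ± 0.12, adjusted p = 1.04e-06). OSH71 had an interaction of 1.04 ± 0.11, OSH3 of 0.82 and OSH1 of 0.67, while OSH43 (-0.22) did not pass.

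RFL, the rice LEAFY homologue, was level at 2 mm (-0.02 ± 0.12) and 2.39-fold higher in osmads1 at 5-7 mm (interaction 1.28 ± 0.17). FZP, an ERF factor that sets spikelet meristem identity, had an interaction of 1.21 ± 0.25, with its wild-type level at 5-7 mm in the range of the reporter controls. LOG, a cytokinin-activating enzyme of the shoot meristem, went the other way, at -0.06 ± 0.14 and -1.01 ± 0.14 (interaction -0.95 ± 0.19), and its other probe set was not called. FON1, a receptor kinase that limits floral meristem size, was lower by 0.26 and 0.31 and had no call (-0.04 ± 0.13). QHB (0.48) and OsWOX4 (0.09), both WOX homeobox genes, did not pass. Without single arrays or under other settings the number called positive was 4 to 8 of 12.

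Most DNA replication genes changed from lower in osmads1 at 2 mm to higher at 5-7 mm. Of 30 measured genes, 22 were called positive and 1 negative (76.7% called, median interaction 1.10). The genotype tests called 24 of them lower in osmads1 at 2 mm and 21 higher at 5-7 mm, and 20 of the 30 were called in both directions, where 3.57% of all genes were. The median difference was -0.48 at 2 mm and 0.58 at 5-7 mm, beside -0.02 and -0.02 over all genes. Other settings gave 18 to 24 genes called positive.

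The MCM helicase subunits, which unwind DNA at the replication fork, were close to each other. OsMCM7 read 8.29, 7.95 and 8.08 in osmads1 and 8.77, 8.97 and 8.81 in wild type at 2 mm. At 5-7 mm it read 10.82, 10.84 and 10.89 against 9.41, 9.67 and 9.34. Every osmads1 array lay below the wild-type arrays at the first length and above them at the second, with an interaction of 2.12 ± 0.15 (adjusted p = 4.01e-07). OsMCM5 (1.97), OsMCM6 (1.92), OsMCM4 (1.89), OsMCM2 (1.81) and OsMCM3 (1.78) were alike in size. OsMCM8 (-0.15) and OsMCM9 (0.10), which are no part of the MCM2-7 ring, did not pass.

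Origin recognition genes were less even. ORC3 had the largest interaction of the list (2.22 ± 0.19, adjusted p = 2.38e-06), with 5.44, 5.15 and 5.51 in osmads1 against 6.14, 6.46 and 6.09 at 2 mm, and 7.78, 7.85 and 8.05 against 6.68, 6.63 and 6.31 at 5-7 mm. ORC4 (1.33), ORC5 (1.15) and ORC1 (0.61) passed, and ORC2 (0.20 ± 0.094, adjusted p = 0.165) did not, except with a separate variance for each length. At the fork, OspolD1, the catalytic subunit of DNA polymerase delta, had an interaction of 1.74 and its partner OspolD2 of 1.0. The sliding clamp gene OsPCNA had 1.48, and the clamp loader genes ranged from 0.25 (OsRFC1, called under 4 alternatives only) to 1.39 (OsRFC3).

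Single-stranded DNA binding proteins of the RPA complex differed among paralogues. OsRPA32 read 8.36, 7.96 and 8.23 in osmads1 against 8.67, 8.79 and 8.75 at 2 mm, and 10.85, 10.75 and 10.85 against 9.34, 9.63 and 9.48 at 5-7 mm (interaction 1.89 ± 0.15). OsRPA32-2 (0.94) followed, while OsRPA32-3 was the negative call of the list (-0.39, adjusted p = 0.0135). OsRPA70b had an interaction of 1.59, OsRPA70c of 0.74 and OsRPA70a of -0.05, the last without a call. Related sequences could share signal on a probe set, which the files do not show.

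**Figure D3:**
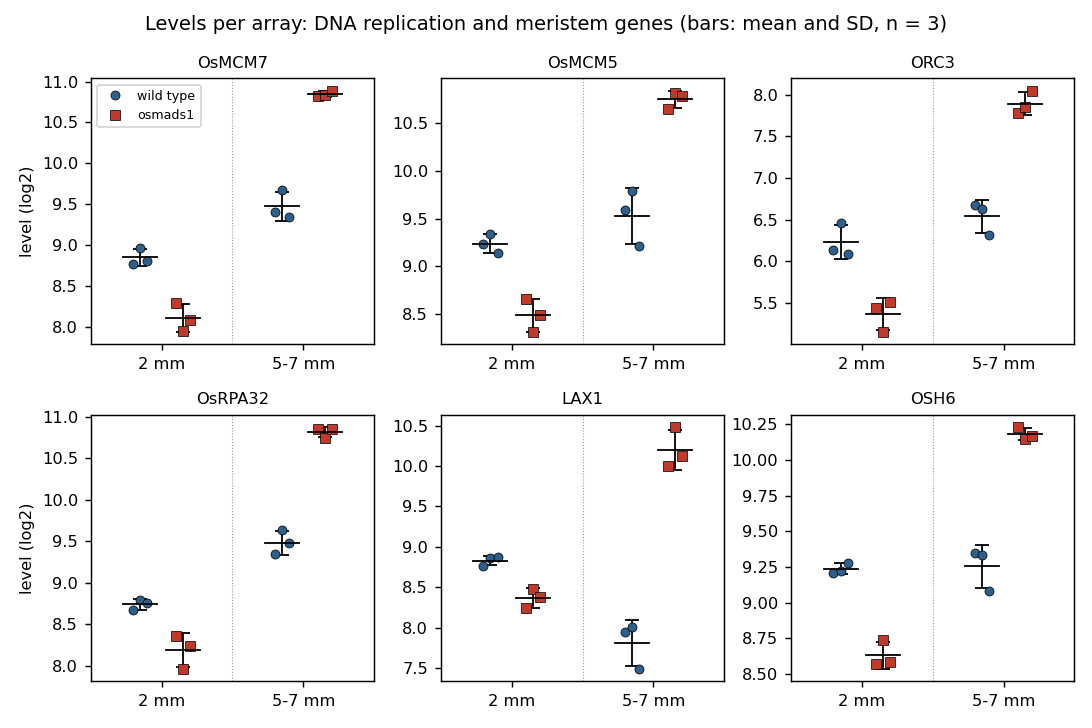
Log2 level on each array (vertical axis) of OsMCM7, OsMCM5, ORC3, OsRPA32, LAX1 and OSH6 in wild type (circles) and osmads1 (squares) at 2 mm and 5-7 mm, with mean and SD (n = 3). In all 6 panels the osmads1 arrays lie below wild type at 2 mm and above it at 5-7 mm.

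Of 75 cyclin, cyclin-dependent kinase and kinesin genes 22 were called positive and 6 negative, with a median interaction of 0.18. The share called was 37.3%, against 36.3% of all genes and 39.5% of those with an informative name. Of the 75 genes, 4 were called lower in osmads1 at 2 mm and higher at 5-7 mm. OsRBR1, a retinoblastoma-related repressor of S phase entry, had the largest value (0.98 ± 0.16), followed by the kinesins KIN8B (0.87 ± 0.092) and KIN14O (0.82 ± 0.12) and the D-type cyclin CYCD4-2 (0.81 ± 0.13). The mitotic cyclins CYCB1-1 (-0.02), CYCB2-1 (0.18) and CYCB2-2 (-0.02) and the mitotic kinase CDKB2-1 (0.17) did not pass. All 5 histone H2B genes were called positive, from 0.37 to 0.57. The number called ranged from 0 to 5 over other settings, with 0 when an interaction was tested against 0.5 log2 units and 2 at an adjusted p under 0.01.

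Meristem marker genes moved with these groups. The mean level of 5 such markers was 9.28 to 9.46 on the osmads1 arrays and 9.59 to 9.66 on the wild-type arrays at 2 mm, and 10.17 to 10.45 against 9.27 to 9.46 at 5-7 mm. Of the 5, 4 were called positive, the same calls as in the meristem list above. The markers were OSH1, OSH71, FON1, LAX1 and RFL, all members of that list. Their part in the replication and cell cycle values was not tested.

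All 7 measured circadian clock genes were called in the interaction, 5 positive and 2 negative. By the genotype tests 1 was higher and 3 were lower in osmads1 at 2 mm, and 4 were higher and 1 lower at 5-7 mm. OsPCL1, a MYB-type factor of the evening complex, read 3.22, 3.60 and 3.58 in osmads1 and 6.91, 7.17 and 6.93 in wild type at 2 mm. At 5-7 mm the readings overlapped, at 9.66, 9.65 and 9.73 against 9.64, 9.60 and 9.70. The deficit was 11.6-fold at 2 mm, and no difference was called at 5-7 mm (0.03 ± 0.1, adjusted p = 0.881). The interaction was 3.57 ± 0.15 (adjusted p = 3.93e-09).

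The morning gene OsCCA1 was opposite to it. Its levels at 2 mm were 11.34, 11.36 and 11.35 in osmads1 and 7.89, 7.46 and 7.64 in wild type, and at 5-7 mm 6.97, 7.09 and 6.94 against 6.58, 6.40 and 6.77. The groups stayed apart, but a 12.9-fold excess became 1.33-fold (interaction -3.27 ± 0.16, adjusted p = 1.47e-08). Its other probe set was not called. GI, which links the clock to flowering time, was 3.62-fold lower at 2 mm and 1.2-fold higher at 5-7 mm (2.13 ± 0.097).

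The pseudo-response regulators, repressors that act in sequence through the day, did not move as a block. OsPRR1 was 2.22-fold lower at 2 mm and overlapped at 5-7 mm (interaction 1.02 ± 0.13). OsPRR73 was higher at 5-7 mm only (0.78 ± 0.14), OsPRR37 had an interaction of 0.46, and OsPRR95 of -0.64 ± 0.14. Other settings left 3 to 5 clock genes called positive and 1 to 2 negative. The labels give no time of collection for any group, and its part in the clock values was not tested.

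Of 36 measured dehydration and abscisic acid genes 22 were called negative and 5 positive in the interaction (75.0% called, median interaction -0.55). By the genotype tests 12 were higher in osmads1 at 2 mm and 21 were lower at 5-7 mm, and 9 were both, where 5.02% of all genes were. The number called negative was 13 to 22 under other settings. RAB16B encodes a dehydrin that protects cells as they dry. At 2 mm it read 8.48, 9.71 and 9.31 in osmads1 and 5.92, 7.02 and 6.58 in wild type, and at 5-7 mm 3.71, 3.52 and 3.71 against 6.89, 6.32 and 6.26. The excess at 2 mm was 6.33-fold. The osmads1 level at 5-7 mm was in the range of the reporter controls, and the deficit there was at least 6.1-fold, taking the upper quartile of those controls at that length as the floor, as for the other bounds given below. The interaction measured was -5.50 ± 0.43 (adjusted p = 1.03e-06).

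Its dehydrin neighbour RAB21 behaved alike on both of its probe sets, at 2.69 ± 0.36 and -2.19 ± 0.36 (interaction -4.87 ± 0.51). RAB16C (-0.99) and LEA3 (-1.73) were also negative. RAB16D was positive (0.41, adjusted p = 0.0401, a call lost under 11 alternatives), and EM, an early LEA protein gene of seeds, was the largest exception. EM overlapped between the genotypes at 2 mm, at 11.49, 12.12 and 11.90 in osmads1 against 11.53, 11.21 and 11.46. At 5-7 mm it read 10.24, 11.05 and 10.12 against 7.02, 6.79 and 6.33, 13.5-fold higher in osmads1 (interaction 3.32 ± 0.34, adjusted p = 1.12e-05).

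In the abscisic acid pathway, the PP2C phosphatases that restrain it were negative. OsPP2C30 read 9.66, 10.68 and 10.23 in osmads1 against 9.37, 9.54 and 9.51 at 2 mm, and 7.47, 7.45 and 7.34 against 9.71, 9.58 and 9.69 at 5-7 mm (interaction -2.96 ± 0.25). OsPP2C68 (-2.92 ± 0.37), OsPP2C09 (-2.87), OsPP2C08 (-1.24) and OsPP2C51 (-1.0) had the same sign. The SnRK2 kinases that those phosphatases inhibit were divided. OsSAPK9 was 5.93-fold lower in osmads1 at 2 mm, with 6.03, 6.03 and 6.01 against 8.48, 8.68 and 8.62, and 1.21-fold lower at 5-7 mm (2.29 ± 0.11). OsSAPK10 (0.79) was positive too, whereas OsSAPK1 (-1.0), OsSAPK4 (-0.52), OsSAPK3 (-0.43) and OsSAPK2 (-0.33) were negative, and the other 4 measured did not pass. The OsSAPK2 call was lost under 13 alternatives and the OsSAPK3 call under 1. DREB1A, a cold and drought factor, had an interaction of -2.16, while DREB1B (-0.69 ± 0.49, adjusted p = 0.382) and DREB1G (-0.07 ± 0.30) did not pass. OsPSY3, a phytoene synthase on the route to abscisic acid, was 1.94-fold higher and then 5.52-fold lower (-3.42 ± 0.21).

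Of 8 genes for NAC transcription factors 4 were called in the interaction, all negative, and each of the 4 was called higher in osmads1 at 2 mm and lower at 5-7 mm. OsNAC6 read 8.09, 8.71 and 8.42 in osmads1 against 6.91, 7.16 and 7.21 at 2 mm, and 4.49, 4.53 and 4.51 against 7.93, 7.70 and 7.95 at 5-7 mm. It went from 2.48-fold higher to 10.2-fold lower without overlap (interaction -4.66 ± 0.19, adjusted p = 3.2e-09), though its other probe sets were not called. ONAC068 (-3.40 ± 0.21), ONAC067 (-2.74 ± 0.17) and ONAC071 (-2.23 ± 0.12) followed, the last on 2 other probe sets as well. The uncalled ONAC004 and ONAC076 were in the range of the reporter controls in all 4 groups.

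Other regulators among the largest negative interactions were OsHox24, OsWRKY71 and CCCH zinc finger genes. OsHox24, an HD-Zip factor, was 6.29-fold higher in osmads1 at 2 mm and at least 1.82-fold lower at 5-7 mm, there in the range of the reporter controls (-4.57 ± 0.45). OsWRKY71, a WRKY repressor, differed little at 2 mm (0.49 ± 0.28, adjusted p = 0.348). At 5-7 mm it read 4.15, 4.22 and 4.11 in osmads1 against 8.89, 7.57 and 8.94, 19.8-fold lower (-4.80 ± 0.39, with its other probe set called alike). Of 6 WRKY genes (33.3% called), WRKY51 was the other call (-0.35, adjusted p = 0.0408), lost under 12 alternatives.

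Of 50 CCCH zinc finger genes 7 were called positive and 9 negative (32.0% called), a share below that of all genes, with the largest values among the negative ones. OsC3H40 read 8.66, 8.56 and 8.54 in osmads1 against 4.51, 4.98 and 4.79 at 2 mm. At 5-7 mm it read 9.74, 9.73 and 9.85 against 10.89, 10.85 and 10.94 (interaction -4.94 ± 0.14, adjusted p = 1.43e-10). OsC3H37 was 3.29-fold higher and then 10.2-fold lower (-5.07 ± 0.18), OsC3H2 had an interaction of -3.14 ± 0.15 and OsC3H35 of -2.92 ± 0.16. OsC3H3 was the largest positive value (2.00 ± 0.20), with wild type at 5-7 mm in the range of the reporter controls.

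**Figure D4:**
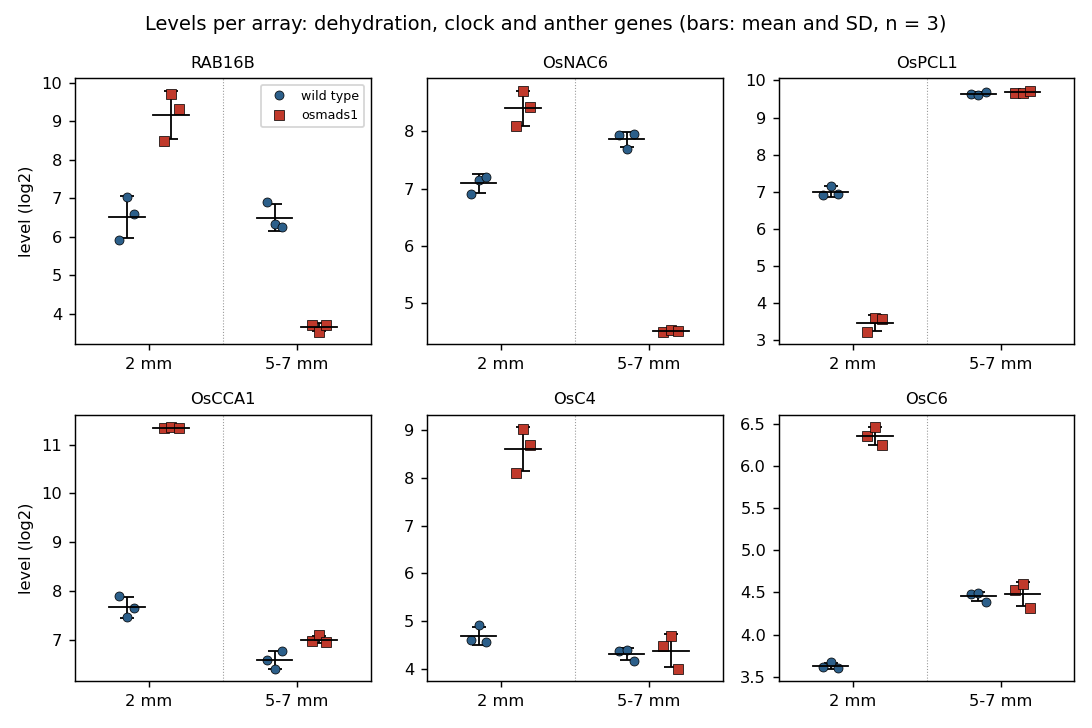
Log2 level on each array (vertical axis) of RAB16B, OsNAC6, OsPCL1, OsCCA1, OsC4 and OsC6 in wild type (circles) and osmads1 (squares) at 2 mm and 5-7 mm, with mean and SD (n = 3). RAB16B and OsNAC6 exchange the order of the genotypes, while OsPCL1, OsC4 and OsC6 are apart at 2 mm and overlap at 5-7 mm.

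Of 15 measured anther and tapetum genes 9 were called negative and 2 positive in the interaction (73.3% called, median interaction -0.53). The genotype tests called 6 higher and 1 lower in osmads1 at 2 mm, and 2 higher and 2 lower at 5-7 mm. OsC4, a lipid transfer protein gene of the anther, read 8.11, 9.02 and 8.69 in osmads1 and 4.61, 4.91 and 4.56 in wild type at 2 mm, 15-fold apart. At 5-7 mm it overlapped, at 4.47, 4.68 and 4.0 against 4.37, 4.39 and 4.16 (interaction -3.83 ± 0.30, adjusted p = 1.02e-06). OsC6, a related lipid transfer protein gene, was 6.62-fold higher at 2 mm and overlapped at 5-7 mm (-2.70 ± 0.12).

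OsRAFTIN1, a tapetal protein gene, had an interaction of -1.80 ± 0.20, CYP703A3, a hydroxylase for pollen wall lipids, of -1.79 ± 0.22, and RTS of -0.98 ± 0.20. CYP703A3 and RTS were above the range of the reporter controls only in osmads1 at 2 mm. BHLH142, a tapetum regulator also called TIP2, reached its interaction in another way. It differed by -0.22 ± 0.17 at 2 mm and was 3.83-fold lower at 5-7 mm, with 4.52, 4.81 and 5.42 in osmads1 against 6.77, 6.84 and 6.94 (-1.72 ± 0.24). MSP1, a receptor kinase gene that keeps spore-forming cells few, was positive (0.85), as was OsTDL1B (0.66), while the MSP1 ligand gene OsTDL1A was negative (-0.80, adjusted p = 0.036) and lost its call under 9 alternatives. The number called negative was 5 to 10 under other settings.

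The mean level of 9 anther and tapetum markers was 5.47 to 5.67 in osmads1 and 4.45 to 4.56 in wild type at 2 mm, and 4.84 to 5.01 against 5.12 to 5.30 at 5-7 mm. Of these markers 8 were called negative and 1 positive. OsC6, OsC4, OsRAFTIN1, CYP703A3, BHLH142, MSP1 and OsTDL1A are among them and are reported above, so most of these calls repeat those of the list. Markers of the secondary wall had no call among 4 genes. Of 11 meiosis genes 2 were called positive and 1 negative (27.3% called), a share below the 36.3% of all genes. OsDMC1, the meiotic recombinase, was 1.9-fold higher and then 1.48-fold lower (-1.49 ± 0.25). CRC1, a synaptonemal complex protein gene, had the reverse order (1.31 ± 0.14), and PAIR1 had an interaction of 0.47 ± 0.14, not called under 2 alternatives. OsMEL1, a germ cell Argonaute, was lower at both lengths, by 0.53 and 0.76, with no interaction call (-0.23 ± 0.18).

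Photosynthesis genes had interactions of both signs. Of 19 measured genes 3 were called positive and 5 negative (42.1% called, median -0.08). PORA, a chlorophyll synthesis enzyme gene, was 3.28-fold higher in osmads1 at 2 mm and overlapped at 5-7 mm (-1.70 ± 0.26). PSAG, a photosystem I subunit gene, was alike (-1.41 ± 0.14), although its other probe set was not called. petC, for the Rieske protein, went from 2.04-fold higher to 1.64-fold lower (-1.74 ± 0.21). OsGLK1, a factor for chloroplast development, was 2.82-fold lower at 5-7 mm (-1.90 ± 0.24).

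The light-harvesting genes RCABP69 and CAB2R were the opposite, level at 2 mm and 4.52-fold and 5.64-fold higher in osmads1 at 5-7 mm. RCABP69 read 5.31, 3.81 and 4.72 against 5.16, 4.31 and 4.51 at 2 mm, and 7.29, 6.29 and 7.19 against 4.98, 4.64 and 4.62 at 5-7 mm (2.22 ± 0.49, adjusted p = 0.00494). Replicates spread widely, and for CAB2R replicate 2 was the lowest in every group. The CAB2R call (2.11 ± 0.58, adjusted p = 0.0177) was lost with a separate variance for each length (adjusted p = 0.0877). RCABP89, of the same family, was higher at both lengths with an interaction of -0.21 ± 0.27. The mean of 7 green tissue markers was above wild type at both lengths, by 0.80 and 0.81, and 3 of the 7 were called positive and 3 negative. PORA, PSAG, petC, RCABP69, CAB2R and RCABP89 are among these markers, so most of these calls repeat those above.

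Hormone genes were called in both directions. Of 60 auxin genes 17 were positive and 13 negative (50% called), and of 31 cytokinin genes 8 were positive and 8 negative (51.6%). IAA2, an Aux/IAA repressor of auxin response, read 8.33, 7.84 and 8.18 in osmads1 against 8.99, 9.08 and 8.89 at 2 mm, and 10.28, 10.45 and 10.39 against 9.61, 9.33 and 9.19 at 5-7 mm (1.87 ± 0.18). IAA7 (1.19 ± 0.16) and the response factor gene ARF14 (1.13 ± 0.14) were also positive. OsPIN3a, an auxin efflux carrier, was negative on both of its probe sets, with 2.72-fold lower levels at 5-7 mm (-1.68 ± 0.14), and IAA24 changed sign (-1.22 ± 0.16).

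Among cytokinin genes, the oxidase OsCKX3 (1.42 ± 0.21) and the response regulator OsRR9 (1.36 ± 0.16) were positive, whereas the oxidase OsCKX11 (-1.12 ± 0.16) and the activating enzymes LOGL9 (-0.93 ± 0.16) and LOGL5 (-0.85 ± 0.16) were negative. All 5 calls among 11 gibberellin genes were negative (45.5% called, against 36.3% of all genes and 39.5% of those with an informative name). They span synthesis (D35, -0.80 ± 0.14), breakdown (EUI1, -1.06 ± 0.12), the receptor (gid1, -0.78 ± 0.12) and the DELLA-type repressors SLRL1 (-0.79 ± 0.17) and SLR1. SLR1 (-0.45 ± 0.14, adjusted p = 0.0373) lost its call under 10 alternatives, with its adjusted p reaching 0.109.

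Among jasmonate genes, 5 of 34 had positive calls and 9 had negative ones (41.2%). Most of the JAZ repressor genes named here were negative, namely JAZ12 (-1.69 ± 0.35), JAZ10 (-1.41 ± 0.24), JAZ11 (-1.39 ± 0.37) and JAZ9 (-1.20 ± 0.29), as was the lipoxygenase gene LOX1.1 (-1.99 ± 0.32). The JAZ11 and JAZ9 calls were each lost under 1 alternative. JAZ2 stood apart. It read 8.19, 8.06 and 8.20 in osmads1 at 2 mm and 9.77, 9.75 and 9.84 at 5-7 mm, while the wild-type arrays read 2.30 to 2.56 and 2.44 to 2.72, in the range of the reporter controls. The interaction of 1.5 ± 0.13 (adjusted p = 2.39e-06) therefore compares osmads1 levels of the lengths, which are not on one scale, against a wild type near the floor.

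Heat shock genes had 12 positive and 4 negative calls among 42 (38.1%). The small heat shock protein genes HSP17.4 (2.42 ± 0.36), HSP18.6 (1.94 ± 0.13) and HSP18.0 (1.63 ± 0.17) were lower in osmads1 at 2 mm and higher at 5-7 mm. The heat stress factor gene HSFC2A was 10.3-fold higher in osmads1 at 2 mm, at 9.03, 9.50 and 9.34 against 5.93, 5.95 and 5.90, with an interaction of -3.79 ± 0.15. At 5-7 mm its osmads1 level was in the range of the reporter controls, and it was at least 1.24-fold lower there. HSFB2C had 1.26 ± 0.19. For HSFA2C (-1.42 ± 0.16) another probe set was called with the opposite sign, so its direction is uncertain.

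Of 13 SPL genes, a family of reproductive phase and branching factors, 6 were called negative and 3 positive (69.2%). OsSPL14, which limits tillering and promotes panicle branching, was 1.53-fold higher at 2 mm and 1.28-fold lower at 5-7 mm (-0.97 ± 0.13). SPL2 had the same order (-0.87 ± 0.11). SPL8 was positive, with a 2.53-fold excess at 5-7 mm (1.08 ± 0.15). Of 8 lateral organ genes (12.5% called) only OsYABBY4 was called (-0.45 ± 0.12, adjusted p = 0.0152), and under 1 alternative it was not. OsYABBY1 (-0.25 ± 0.29) and OsJAG (-0.59 ± 0.21, adjusted p = 0.0639), which acts in floral organ growth, were lower in osmads1 at both lengths and did not pass, though OsJAG was called under 6 alternatives.

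For genes of growth and transport, calls were made for 9 of 32 cellulose synthase and COBRA-like genes (28.1%), 8 of 30 expansin and xyloglucan genes (26.7%), 9 of 25 aquaporins (36.0%) and 10 of 34 sugar transport and amylase genes (29.4%). Ribosomal protein genes had a lower share than these growth and transport lists, with 2 positive and 1 negative of 22 (13.6%). CESA6, of the primary wall cellulose synthase, went from 1.58-fold lower to 1.23-fold higher (0.96 ± 0.12), and the expansin gene EXPA6 from 1.95-fold higher to 1.34-fold lower (-1.38 ± 0.18). EXPA5 was lower at both lengths by 0.87 and 0.73, with no interaction call (0.14 ± 0.13).

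Single members of these lists were among the largest interactions. The aquaporin gene OsNIP4;1 was at least 8.66-fold higher in osmads1 at 2 mm, the only group above the range of the reporter controls (-3.08 ± 0.18). AMY1.3, an alpha-amylase gene, was at least 7.77-fold lower at 5-7 mm, where osmads1 was in the range of the reporter controls and the wild-type arrays spread widely, at 8.09, 5.41 and 7.01 (-4.41 ± 0.80), and its other probe set was not called. BC1L9, a COBRA-like gene, was 15.6-fold lower at 5-7 mm (-4.37 ± 0.49). OsSWEET15, a sugar transporter gene, read 6.08, 6.52 and 6.33 in osmads1 against 7.28, 7.09 and 7.20 at 2 mm, and 6.63, 7.33 and 6.83 against 4.28, 4.43 and 4.11 at 5-7 mm. It was 1.84-fold lower and then 6.31-fold higher, without overlap (3.54 ± 0.23, adjusted p = 1.78e-07).

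The remaining genes of the 15 largest interactions in each direction belong to none of the lists. The mitochondrial cytochrome b gene cob was 1.59-fold lower and then 7.48-fold higher in osmads1 (3.57 ± 0.24). HATB (2.11 ± 0.15) and PSK4, a phytosulfokine precursor gene (1.99 ± 0.25), also changed from lower to higher. SAT1 (-4.32 ± 0.26), the glutaredoxin gene GRXS5 (-3.80 ± 0.24) and EL2, a cell cycle inhibitor gene (-3.57 ± 0.18), changed from higher to lower. Of the 100 largest interactions, 9 probe sets had an informative gene name, 44 a locus number alone and 47 no single gene, so the named genes cover a small share of the strongest dependence on length.

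**Figure D5:**
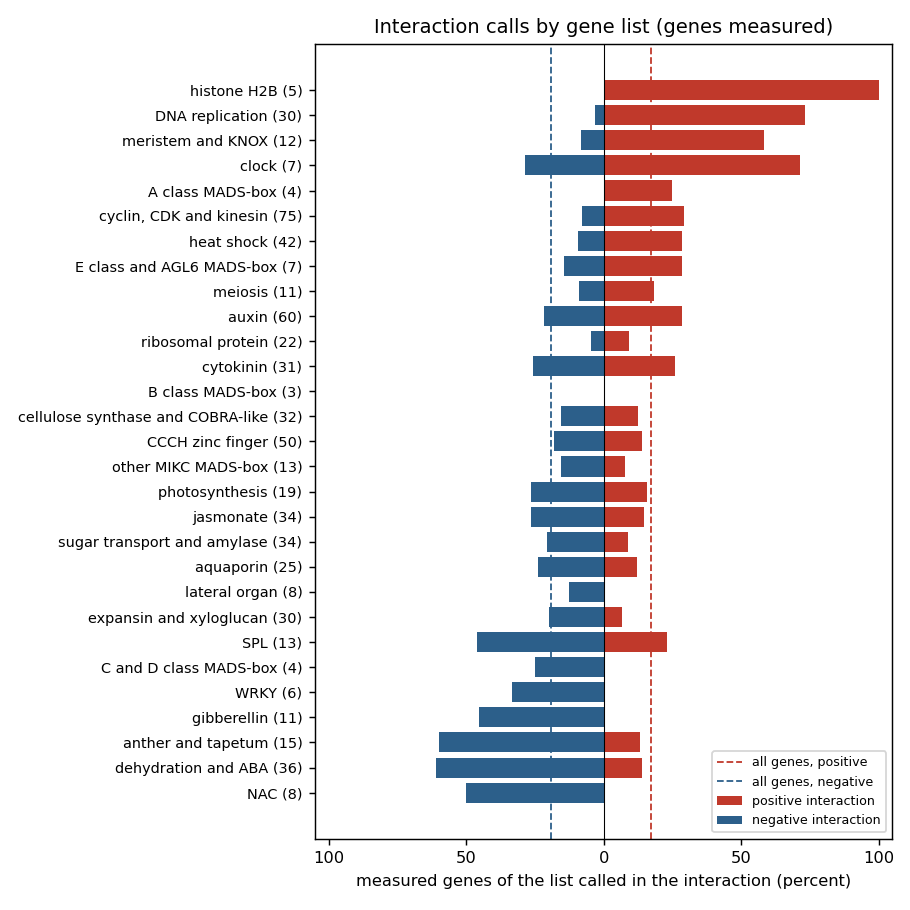
Percent of the measured genes of each list (number in brackets) called in the interaction, positive to the right in red and negative to the left in blue, with dashed lines at the shares of all genes (17.2% and 19.2%). Histone H2B (5 of 5), DNA replication (22 of 30), clock (5 of 7) and meristem genes (7 of 12) have more positive than negative calls, and dehydration (22 of 36), anther (9 of 15) and NAC genes (4 of 8) more negative ones.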

How the data were processed

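Total RNA was extracted with Trizol, and biotin-labelled cRNA was made with the Affymetrix 3′ IVT Express kit and hybridised to rice arrays, per the labels' protocols. The authors deposited values on a log2 scale, 1 per probe set and array. The submitters' processing notes list Partek and RMA, without versions. RMA gives no detection call and understates differences of dim probe sets.

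The deposited log2 values were used without further scaling or filtering. Of 57381 probe sets, 187 controls were left out and tested in a fit of their own, and 57194 were tested with limma 3.58.1 in R 4.3.3 (1 mean per group, eBayes, residual degrees of freedom 8, prior 4.74). Tests were two-sided, with Benjamini-Hochberg adjustment over all 57194 probe sets and calls at an adjusted p under 0.05. Errors of differences and interactions are standard errors, n = 3 per group. The fit was tested on simulated data. Figures were drawn with matplotlib 3.10.9.

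The platform annotation named 1 gene for 22436 probe sets, several for 95, and no gene for 34663. Symbols of the 22436 were updated from RefSeq (ASM3414082v1), where each had an entry. They cover 17905 genes, and the brightest probe set over the 12 arrays stands for each gene. Lists were built from gene names. Members, lists and the naming rule were chosen with earlier results of these data known. The rule names OsMADS1, the floral MADS-box genes, the 15 largest interactions in each direction, up to 6 called and 2 uncalled members per list and 6 genes of equal sign at both lengths. List members given by their interaction alone, and controls, fall outside it and were chosen after their values were seen. Replicates are biological per the series design. Deviations of same-numbered arrays correlated at -0.068 to 0.172, over 0.1 in 4 of 18 pairs, all of them between the lengths within a genotype. The main fit used no replicate block, and some named calls changed with one. Alternatives covered scaling, filters on dim probe sets, variance models, array weights, replicate blocks, thresholds, 1 probe set per gene and leaving out each array.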

Additional observations from a re-analysis of the deposited data

Results flagged for a closer look

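The genotype difference depended on panicle length, by the test of the interaction itself, for 12750 probe sets. Of these, 6487 had a positive and 6263 a negative interaction, and 2587 were called with opposite signs at the 2 lengths. With a separate variance for each length, not shared across probe sets, that last count was 869.

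Signals in control probe sets outside the gene comparisons also passed. The reporter control RPTR-Os-K01193-1 had an interaction of -3.69, the 5′ probe set of a rice GAPDH control (AFFX-Os_Gapdh_5) of -1.09 (adjusted p = 0.04067) and the 5′ probe set of a Bacillus thr control (AFFX-r2-Bs-thr-5_s) of -1.47 (adjusted p = 0.0004631). In the mutant, the last of these was lower at 5-7 mm and the first was higher at 2 mm. Groups of 3 arrays are too small for a test of single outlying arrays, and none was made.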

How the results depend on the processing

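Calls numbered 12750 (6487 positive, 6263 negative, 2587 of opposite sign). With 1 probe set per gene they numbered 7952 (3817 positive, 4135 negative). At an adjusted p under 0.01 there were 8194 (4089 positive, 4105 negative, 1291 opposite), and under TREAT at 0.5 log2 units 3312 (1625, 1687 and 177). A separate variance for each length, not shared across probe sets, left 10744 calls but 869 of opposite sign. Leaving out single arrays gave 10887 to 12634 calls, 5618 to 6318 positive, 5269 to 6316 negative and 1833 to 2430 opposite. Replicate numbers are shared by the groups, yet deviations of same-numbered arrays correlated at -0.068 to 0.172, over 0.1 in 4 of 18 pairs, and a replicate block gave 12462 calls (2483 opposite), or 11345 (2227) within lengths. Every other setting kept these counts within 1.5 times. Named genes were tried in 23 settings that kept the threshold, except that dim genes removed by a level filter were not tried under it. Of 149 called genes 132 kept call and sign in every setting where they were tried. At an adjusted p under 0.01, 131 of the 149 were called, and under TREAT 99. CAB2R, H2B.5, H2B.6, H2B.11, JAZ9, JAZ11, OsMADS1, OsSAPK2, OsSAPK3, OsTDL1A, OsYABBY4, PAIR1, RAB16D, RPL18, SLR1, SPL18 and WRKY51 lost the call in at least 1. Of 45 uncalled genes 15 gained a call in at least 1, namely HSFA3, JAZ13, MTR1, ORC2, OsJAG, OsMADS3, OsMADS5, OsMADS16, OsMADS18, OsMADS20, OsMADS34, OsRFC1, OsTPP1, QHB and SPL16. Genes that changed sign had no call. With the values of each length rescaled to equal residual spread, OsMADS2 was at 0.02, FON1 at 0, CML15 at 0.12, CYCB1-1 at 0.01 and CYCB2-2 at 0.01. Under quantile normalization OsMADS7 was at -0.01 and DREB1G at 0.12. Without single arrays the interaction ranged from -0.08 to 0.32 for OsMADS7, -0.13 to 0.01 for OsMADS2, -0.11 to 0.02 for FON1, -0.4 to 0.08 for RCABP89, -0.65 to 0.34 for CML15, -0.04 to 0.02 for CYCB1-1, -0.09 to 0.04 for CYCB2-2, -0.28 to 0.19 for DREB1G, -0.28 to 0.02 for OsMCM8 and -0.1 to 0.34 for OsWOX4. The cause was not tested. Dim genes near the reporter controls have understated differences.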
